A study of Mus musculus with 14 samples.

Results

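Interferon regulatory factors other than the type I interferon trio of Irf3, Irf7 and Irf9 were followed in mouse peritoneal cells after an LPS challenge with or without pretreatment with SMD. The 6 genes, chosen by name from 18193 genes with a probe set of their own, were Irf1, Irf2, Irf4, Irf5, Irf8 and Irf2bp2. They had 12 of the 45101 probe sets on the array, those whose only gene symbol in the platform annotation was 1 of these names. All 12 passed the filter on low signals. The 14 arrays came from female mice of the cross C57Bl/6 x C3H F1, aged 12 to 16 weeks. Naive mice (2 arrays) had neither LPS nor SMD. LPS mice (3 arrays) had 60 µg of ultra pure LPS from Salmonella minnesota in PBS through a tail vein. In 3 further groups of 3 arrays each, SMD at 100, 200 or 300 mg/kg was given in 50 µl to the nares under halothane, 30 minutes before the same LPS dose, and cells were taken 2.0 hours after LPS. The labels give no harvest time for the LPS group, name SMD by this abbreviation only, and do not say whether LPS or naive mice had anaesthesia or vehicle. They call the arrays of the 4 challenged groups biological replicates and do not say whether cells were pooled, so the p-values measure the spread between these arrays.

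Interferon regulatory factors are DNA-binding proteins that recognise GAAA repeats in the control regions of immune genes. IRF1 is an activator that interferon gamma and NF-kB switch on, and IRF2 binds the same sites, mostly as a repressor. IRF2BP2 is a co-repressor that binds IRF2 and is known to restrain inflammatory genes in macrophages. IRF5 is a latent factor that the Toll-like receptor adaptor MyD88 activates by modification of the protein, and it drives cytokine genes. IRF8 and IRF4 bind DNA with partners such as PU.1 and BATF. IRF8 is a lineage factor of monocytes and macrophages, and IRF4 serves B cells, plasma cells and alternatively activated macrophages.

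Control regions are shown for Irf1 and Irf8, called higher after LPS and lower with SMD at 300 mg/kg than after LPS. They are also shown for Irf2 and Irf2bp2, called higher at that dose than after LPS. Each is the 250 bases before the start of the gene in RefSeq (build GRCm38.p6), 5′ to 3′ on the strand of the gene, with motif matches in capitals. For Irf1 and Irf8 the first of the start sites listed was used.
Irf1, chr11:53769764-53770013 (+ strand): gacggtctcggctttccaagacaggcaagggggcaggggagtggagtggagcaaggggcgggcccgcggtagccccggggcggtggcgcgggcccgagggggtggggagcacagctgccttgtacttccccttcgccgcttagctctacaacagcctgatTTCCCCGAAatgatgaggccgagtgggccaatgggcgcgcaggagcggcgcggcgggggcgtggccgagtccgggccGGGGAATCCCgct
Irf8, chr8:120736108-120736357 (+ strand): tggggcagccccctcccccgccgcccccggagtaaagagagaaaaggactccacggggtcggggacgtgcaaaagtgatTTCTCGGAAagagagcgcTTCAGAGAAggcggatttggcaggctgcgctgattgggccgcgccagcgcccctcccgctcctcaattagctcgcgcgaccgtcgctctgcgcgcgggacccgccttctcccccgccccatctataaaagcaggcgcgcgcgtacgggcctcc
Irf2, chr8:46739495-46739744 (+ strand): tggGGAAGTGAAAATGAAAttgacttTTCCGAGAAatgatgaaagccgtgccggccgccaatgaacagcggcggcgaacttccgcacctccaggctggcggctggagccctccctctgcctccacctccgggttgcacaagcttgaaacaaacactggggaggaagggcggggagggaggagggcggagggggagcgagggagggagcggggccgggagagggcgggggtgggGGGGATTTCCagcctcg
Irf2bp2, chr8:126593987-126594236 (- strand): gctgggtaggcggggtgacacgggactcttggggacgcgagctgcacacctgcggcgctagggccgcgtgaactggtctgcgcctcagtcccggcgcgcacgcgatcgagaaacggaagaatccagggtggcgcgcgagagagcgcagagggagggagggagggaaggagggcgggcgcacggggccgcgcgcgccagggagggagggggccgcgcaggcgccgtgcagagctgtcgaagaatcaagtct
The searched motifs were the interferon gamma response motif GAS (TTCNNNGAA), the core of the interferon response element (GAAA, any 2 bases and again GAAA), the Ets-IRF composite (GGAA, any 2 bases and then GAAA), AP-1 (TGANTCA) and the NF-kB consensus, on both strands. Among 32851 mouse promoters cut the same way, 7.02% held the GAS motif, 2.98% the interferon response core, 2.3% the Ets-IRF composite, 6.75% AP-1 and 3.9% the NF-kB consensus. Irf1 held 1 GAS match, TTCCCCGAA, at positions -90 to -82 from the start site, and an NF-kB match, GGGGAATCCC, at -13 to -4. Irf8 held 2 GAS matches, TTCTCGGAA at -171 to -163 and TTCAGAGAA at -153 to -145. Irf2 held a GAS match at -224 to -216 and an NF-kB match at -17 to -8. It also held an interferon response core, GAAAATGAAA, at -241 to -232, which overlaps an Ets-IRF composite, GGAAGTGAAA, at -247 to -238. None of the searched letters stood in this window of Irf2bp2 or Irf4. The start site listed for Irf5 lies inside the gene as annotated, so its window was not used here. A match describes the letters and does not show binding.

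Signals are MAS5 values on a linear scale, and changes are differences of log2(signal + 16) ± the standard error of limma. The calls rest on limma's adjusted p under 0.05, with Benjamini-Hochberg adjustment over 27022 tested probe sets. The median signal of an array was between 65.1 and 84.8. The beta-actin 3′/5′ ratio compares the signals of probe sets at the 3′ and the 5′ end of 1 transcript and is high when labelled RNA is short. It was 2.842 and 3.048 in naive arrays, 1.925, 5.863 and 2.168 in LPS arrays, 4.326, 11.588 and 2.718 at 100 mg/kg, 9.026 to 10.734 at 200 mg/kg and 6.993 to 18.904 at 300 mg/kg. LPS replicate 2 and 100 mg/kg replicate 2 stood above the other 2 arrays of their groups. All arrays at 200 and 300 mg/kg stood above all LPS arrays. The same ratio for Gapdh was 6.776 and 8.865 in naive arrays, 4.539, 92.045 and 16.834 after LPS, 20.965 to 74.202 at 100 mg/kg, 66.986 to 114.459 at 200 mg/kg and 32.186 to 178.705 at 300 mg/kg. By this measure LPS replicate 2 stood above 4 of the 6 arrays at 200 and 300 mg/kg. The Gapdh ratio was not used as a term in a model here. The labels call the cells peritoneal macrophages. All 13 macrophage markers (Adgre1, Csf1r, Timd4 and others) were above the filter level, and their summed signal was between 199203 and 245055 in all arrays. Over all tested probe sets 10.3% were called higher and 16.8% lower after LPS, and 13.8% and 13.7% at 300 mg/kg against LPS. Of the 13 macrophage markers 1 was called higher and 5 lower after LPS (3 lower without naive replicate 2). At 300 mg/kg against LPS 3 were higher and 2 lower. The 3 became 1 when replicate 1 of LPS was left out or replicate 2 of 300 mg/kg, and the 2 became 0 or 1 without any 1 array of these groups. The summed signal of 12 B cell markers was 109148 to 114435 in naive arrays, so the cells were a mixture, and fewer cells of a type cannot be told apart from less RNA per cell.

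After LPS alone, Irf1, Irf8 and Irf2bp2 rose, by 1.5-fold to 1.82-fold, in the probe set of highest mean signal for each gene. Irf2, Irf4 and Irf5 were not called. Probe sets of Irf2bp2 differed in direction. Over all tested probe sets 27.1% were called in this comparison, 10.3% higher and 16.8% lower. Of the 6 genes 3 were higher and 0 lower.

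Irf1 (probe set 1448436_a_at) had signals of 3115.7 and 2789.5 in naive arrays and of 5815.6, 3587.1 and 7437.0 in LPS arrays. All LPS arrays lay above both naive arrays, replicate 2 by the least. The change was 0.86 ± 0.26 (n = 2 and 3; limma, adjusted p = 0.0169).

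Irf8 (1416714_at) had signals of 3593.9 and 3628.5 in naive arrays and of 6544.8, 4482.6 and 7809.7 in LPS arrays. Again LPS replicate 2 was the lowest of the challenged arrays and still above the naive arrays. The change was 0.76 ± 0.24 (limma, adjusted p = 0.0225). A second, dimmer Irf8 probe set (1448452_at) read 404.9 and 404.5 in naive arrays and 1476.5, 468.6 and 1338.7 after LPS, a difference of 1.24 ± 0.58 that was not called (limma, adjusted p = 0.129).

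Irf2bp2 (1433634_at) had signals of 2764.2 and 2534.6 in naive arrays and of 3838.4, 3565.6 and 4641.9 after LPS. The 3 LPS arrays lay close together, above both naive arrays, and the change was 0.59 ± 0.18 (limma, adjusted p = 0.0226). Other probe sets of the gene were not called. The LPS arrays lay below the naive arrays in 1433632_at (-0.87 ± 0.36; limma, adjusted p = 0.082) and 1433633_at (-0.40 ± 0.30; adjusted p = 0.37). The dim 1454665_at gave 0.36 ± 0.86 (limma, adjusted p = 0.81).

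Irf4 (1421173_at) read 1294.8 and 1215.3 in naive arrays and 1336.3, 625.0 and 1197.4 after LPS, so the groups overlapped and the difference of -0.32 ± 0.38 was not called (limma, adjusted p = 0.598). Irf5 (1460231_at) read 1605.2 and 1495.0 in naive arrays and 1492.9, 708.2 and 1412.5 after LPS, a difference of -0.43 ± 0.37 (limma, adjusted p = 0.441). For both genes LPS replicate 2, the LPS array with the high actin ratio, was the lowest by far. Irf2 (1418265_s_at, a probe set of the kind whose probes can match more than 1 transcript) read 7010.9 and 6717.9 in naive arrays and 4493.7, 6234.8 and 5542.0 after LPS. Here the LPS arrays lay below the naive arrays, with a difference of -0.35 ± 0.20 that was not called (limma, adjusted p = 0.225). With arrays put on a common distribution by quantile normalization, Irf2 was called lower by -0.64 (limma, adjusted p = 0.00933) and the rise of Irf8, 0.62, missed the threshold (limma, adjusted p = 0.0685). The median difference of all tested probe sets in this comparison was -0.24, and -0.10 with arrays scaled to 1 median. That scaling moved the split of calls from 2773 higher and 4540 lower to 3151 higher and 3236 lower.

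The arrays of 3 of the 6 genes lay wholly above the naive arrays and those of 2 genes wholly below, where 19.4% and 35.3% of all tested probe sets did so. The 3 rises rest on few arrays. Without LPS replicate 1 only Irf2bp2 was called (1 gene), and without LPS replicate 3, naive replicate 1 or naive replicate 2 none of the 6 was. Irf1 then ranged from 0.63 to 0.94 (limma, adjusted p from 0.0521 to 0.133).

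**Figure D1:**
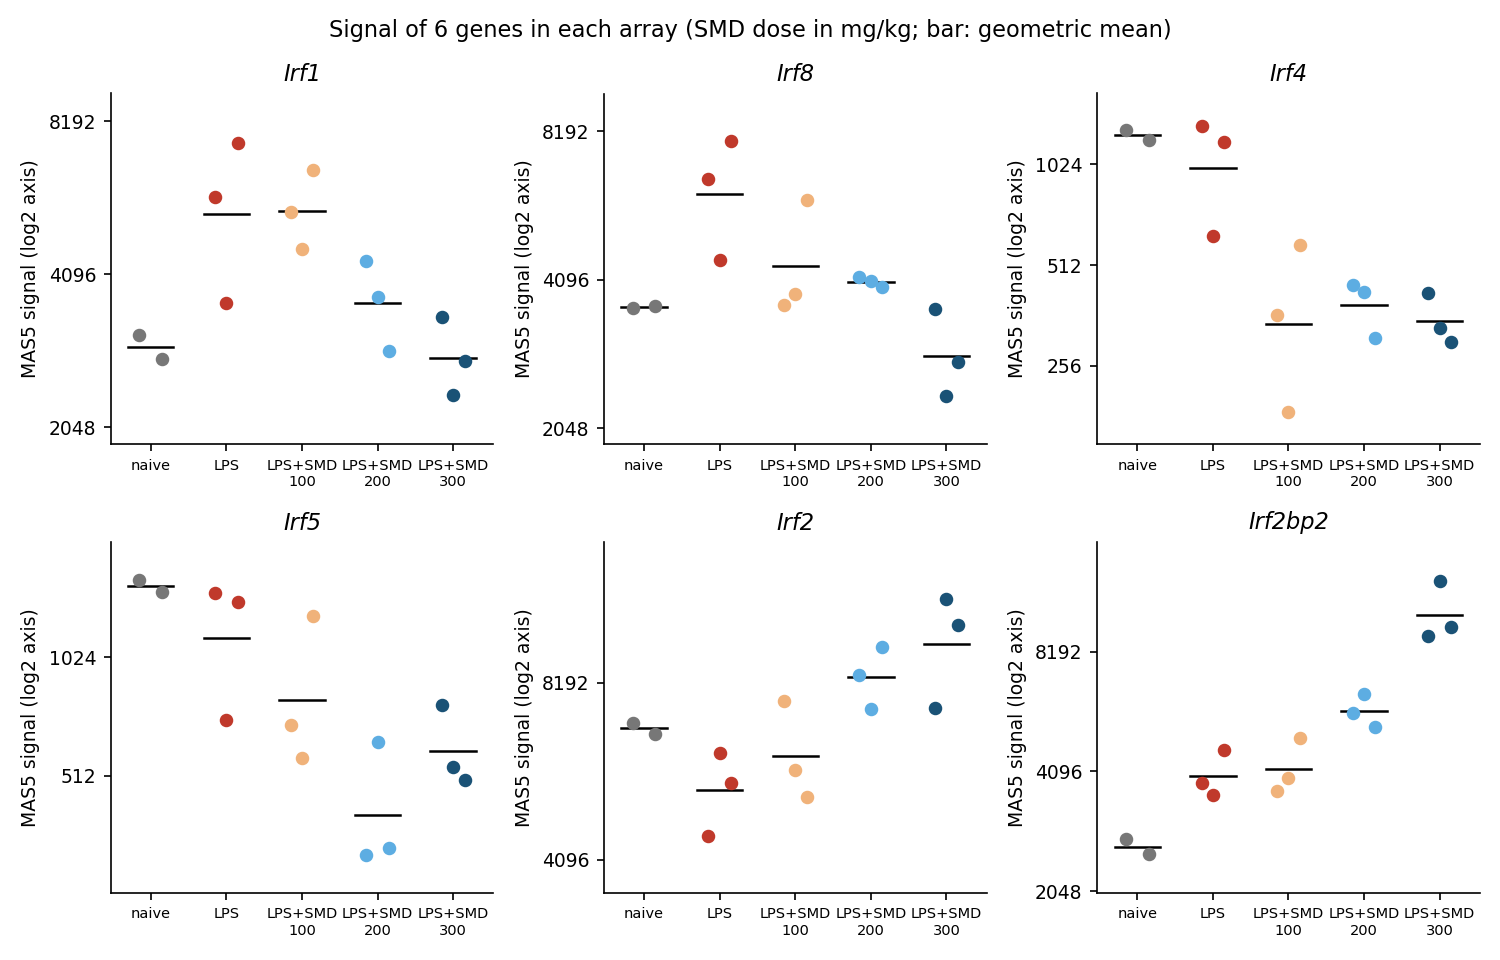
MAS5 signal (log2 axis) of the representative probe set of each of the 6 genes in the 14 arrays, by group; points are arrays, bars are geometric means, and SMD doses are in mg/kg. Irf8 was highest in LPS arrays and Irf1 in LPS arrays and at 100 mg/kg, both lowest at 300 mg/kg, Irf4 and Irf5 were highest in naive arrays, and Irf2 and Irf2bp2 were highest at 300 mg/kg.

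SMD before LPS divided the 6 genes. Irf1, Irf8, Irf4 and Irf5 were lower and Irf2 and Irf2bp2 higher at 300 mg/kg than after LPS alone. At 200 mg/kg Irf4 and Irf5 fell and Irf2 and Irf2bp2 rose (limma), and at 100 mg/kg no gene was called. The background of calls was 27.5% of all tested probe sets at 300 mg/kg (13.8% higher, 13.7% lower), 13.1% at 200 mg/kg (6.68% higher, 6.39% lower) and 0.0% at 100 mg/kg. At that lowest dose limma called 0 of 27022 probe sets at the adjusted threshold and 2428 without adjustment, among them Irf4 and Irf8. The 3 comparisons share the LPS arrays.

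**Figure D2:**
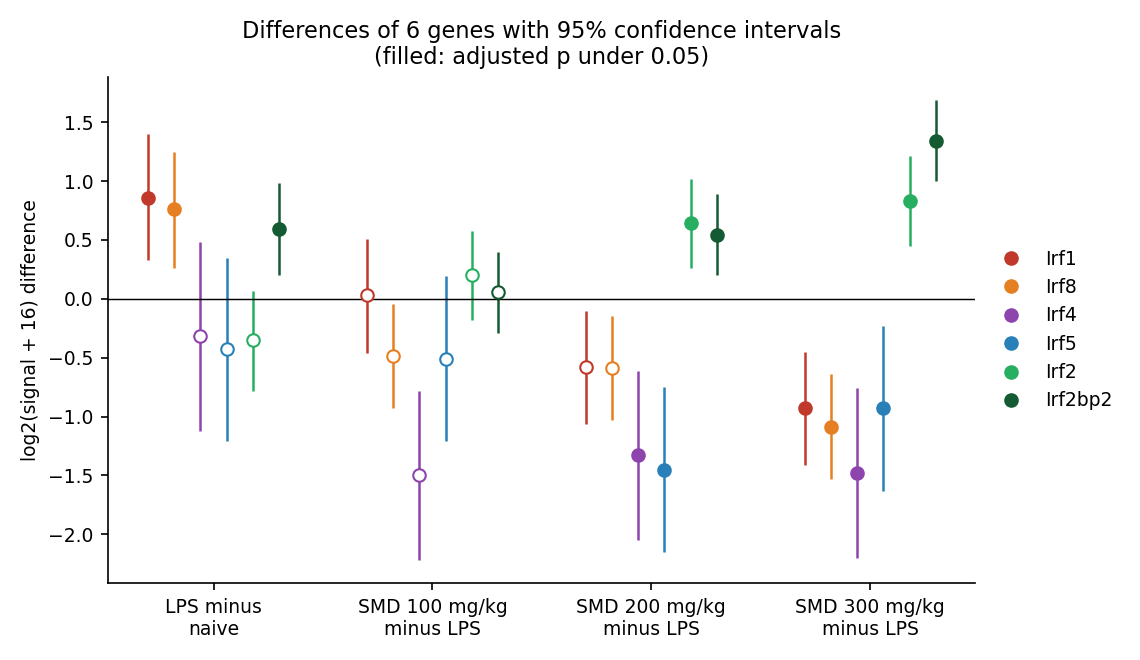
Difference of log2(signal + 16) with its 95% confidence interval for the representative probe sets of the 6 genes in 4 comparisons; filled points had a limma adjusted p under 0.05. With SMD at 300 mg/kg all 6 intervals lie on 1 side of 0, with 4 genes below it and 2 above.

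Irf1, the activator, read 5429.9, 4590.8 and 6559.5 at 100 mg/kg, 4345.2, 3689.0 and 2893.2 at 200 mg/kg and 3368.2, 2368.2 and 2769.4 at 300 mg/kg. The arrays at 100 mg/kg fell within the range of the LPS arrays, and those at 300 mg/kg lay below all of them. Against LPS the difference was 0.03 ± 0.23 at 100 mg/kg (limma, adjusted p = 0.98), -0.58 ± 0.23 at 200 mg/kg (adjusted p = 0.105) and -0.93 ± 0.23 at 300 mg/kg (adjusted p = 0.0048). Irf1 at 300 mg/kg was also below its level at 100 mg/kg, by -0.96 ± 0.23 (limma, adjusted p = 0.00631), where 17.7% of all probe sets were called. Against naive arrays it was higher at 100 mg/kg, by 0.89 ± 0.26 (limma, adjusted p = 0.0152). Its difference from naive at 300 mg/kg was -0.07, with a 95% interval of -0.61 to 0.47 (limma, adjusted p = 0.879). In the order of its levels, 100 mg/kg, LPS, 200 mg/kg, naive and 300 mg/kg, no difference between neighbours passed the threshold.

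Irf8 (1416714_at) read 3639.5, 3825.7 and 5942.1 at 100 mg/kg, 4143.3, 4078.7 and 3951.7 at 200 mg/kg and 3574.1, 2377.4 and 2796.7 at 300 mg/kg. Replicate 3 at 100 mg/kg was near the LPS arrays and the other 2 near the naive ones. The difference from LPS was -0.49 ± 0.21 at 100 mg/kg (limma, adjusted p = 0.523), -0.59 ± 0.21 at 200 mg/kg (adjusted p = 0.0735) and -1.09 ± 0.21 at 300 mg/kg (adjusted p = 0.000774), a fall of 2.12-fold. The dimmer Irf8 probe set read 284.2, 107.5 and 845.1, then 194.5, 178.3 and 142.3, and then 216.5, 185.8 and 120.8 at the 3 doses. It lay below every LPS array at 200 and 300 mg/kg, by -2.41 ± 0.52 (limma, adjusted p = 0.00609) and -2.42 ± 0.52 (adjusted p = 0.00174). Against LPS both Irf8 probe sets were lower at all 3 doses. Against naive arrays they lay on opposite sides at 100 mg/kg, 0.27 ± 0.24 for 1416714_at and -0.41 ± 0.58 for 1448452_at, and at 200 mg/kg, 0.17 ± 0.24 and -1.17 ± 0.58, with none of these called (limma, adjusted p from 0.15 to 0.657). In the order LPS, 100 mg/kg, 200 mg/kg, naive and 300 mg/kg no difference between neighbours passed the threshold for 1416714_at. Its arrays at 200 mg/kg still lay wholly above the naive arrays, and those at 300 mg/kg wholly below them. The difference of 300 mg/kg from naive was -0.33 ± 0.24 (limma, adjusted p = 0.357).

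Irf4, the factor of B cells and alternatively activated macrophages, read 362.7, 186.1 and 587.0 at 100 mg/kg, 446.3, 424.4 and 309.5 at 200 mg/kg and 423.0, 332.8 and 302.3 at 300 mg/kg. All 9 SMD arrays lay below all LPS and naive arrays. At 100 mg/kg Irf4 was the 1 gene of 6 whose arrays lay wholly below the LPS arrays, where 5.38% of probe sets did. The differences from LPS were -1.50 ± 0.34 at 100 mg/kg (limma, adjusted p = 0.267), -1.33 ± 0.34 at 200 mg/kg (adjusted p = 0.0165) and -1.48 ± 0.34 at 300 mg/kg (adjusted p = 0.00316). Between the doses Irf4 differed by at most 0.17 ± 0.34 on the log2 scale, with none called. With the actin ratio as a term it was higher at 300 than at 100 mg/kg, by 0.85 ± 0.25 (limma, adjusted p = 0.029). Irf4 was below naive at each dose, by -1.82 ± 0.38, -1.65 ± 0.38 and -1.80 ± 0.38 (limma, adjusted p = 0.00159, 0.00394 and 0.00286), in comparisons that called 26.1%, 25.7% and 20.6% of all probe sets. In its order of naive, LPS, 200, 300 and 100 mg/kg, the step from LPS to 200 mg/kg was the only one past the threshold. The Irf4 difference at 100 mg/kg from LPS varied with the arrays used: without 100 mg/kg replicate 3 it was -1.88 (limma, adjusted p = 0.0148) and without 100 mg/kg replicate 2 it was -1.09 (adjusted p = 0.901). A second probe set of Irf4, 1421174_at, read between 3.9 and 176.9, near the filter level of 33.9 in many arrays, and fell at 200 mg/kg against naive by -2.40 ± 0.72 (limma, adjusted p = 0.0207).

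Irf5, the factor downstream of MyD88, read 690.1, 566.3 and 1300.4 at 100 mg/kg, 323.0, 622.7 and 335.6 at 200 mg/kg and 774.5, 539.2 and 498.5 at 300 mg/kg. Arrays at 200 mg/kg lay below all LPS arrays, and at 300 mg/kg replicate 1 overlapped with LPS replicate 2. Differences from LPS were -0.51 ± 0.33 at 100 mg/kg (limma, adjusted p = 0.654), -1.45 ± 0.33 at 200 mg/kg (adjusted p = 0.00899) and -0.93 ± 0.33 at 300 mg/kg (adjusted p = 0.0447). The call at 300 mg/kg was held in 6 of the 14 fits that left out 1 array. It was lost, with adjusted p between 0.0501 and 0.186, without either naive array, replicate 1 or 3 of LPS, replicate 1 of 100 or of 200 mg/kg, or replicate 2 or 3 of 300 mg/kg. Against naive arrays Irf5 was lower by -1.88 ± 0.37 at 200 mg/kg (limma, adjusted p = 0.00117) and by -1.36 ± 0.37 at 300 mg/kg (adjusted p = 0.0145), and the difference at 100 mg/kg was -0.94 ± 0.37 (adjusted p = 0.0713). No difference between neighbours in its order of naive, LPS, 100, 300 and 200 mg/kg passed the threshold, though the LPS arrays lay below the naive arrays. The other Irf5 probe set, 1449678_at, read 3.5 to 196.0 and was called in no comparison.

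Irf2, the factor that competes with IRF1, read 7642.7, 5823.1 and 5242.2 at 100 mg/kg, 8465.1, 7384.3 and 9447.2 at 200 mg/kg and 7418.5, 11400.1 and 10284.2 at 300 mg/kg. All arrays at 200 and 300 mg/kg lay above all LPS and naive arrays. Against LPS the differences were 0.20 ± 0.18 at 100 mg/kg (limma, adjusted p = 0.761), 0.64 ± 0.18 at 200 mg/kg (adjusted p = 0.0263) and 0.83 ± 0.18 at 300 mg/kg (adjusted p = 0.00204). Irf2 was 1.55-fold higher at 300 than at 100 mg/kg (0.63 ± 0.18; limma, adjusted p = 0.0203), though the arrays overlapped. It did not pass the threshold against naive at 300 mg/kg (0.48 ± 0.20; limma, adjusted p = 0.106). No difference between neighbours in the order 300, 200 mg/kg, naive, 100 mg/kg and LPS passed the threshold.

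Irf2bp2 (1433634_at), the co-repressor partner of IRF2, had the largest rise of the 6 genes. It read 3663.2, 3937.3 and 4978.2 at 100 mg/kg, 5759.4, 6431.5 and 5307.0 at 200 mg/kg and 8960.5, 12380.7 and 9432.9 at 300 mg/kg. The arrays at 200 mg/kg lay above all those at 100 mg/kg, and the arrays at 300 mg/kg above all others. Against LPS the differences were 0.06 ± 0.16 (limma, adjusted p = 0.936), 0.54 ± 0.16 (adjusted p = 0.0372) and 1.34 ± 0.16 (adjusted p = 9.88e-06) with rising dose, the last a 2.54-fold rise. The step from 200 to 300 mg/kg was called as well, 0.80 ± 0.16 (limma, adjusted p = 0.00806), in a comparison where 5.07% of probe sets were called. It was the only call among the 6 genes there, and it missed the threshold without 200 mg/kg replicate 3 (adjusted p = 0.0514) or 300 mg/kg replicate 2 (adjusted p = 0.0712). By this probe set Irf2bp2 was above naive at each dose, by 0.65 ± 0.18, 1.13 ± 0.18 and 1.93 ± 0.18 (limma, adjusted p = 0.0138, 0.000205 and 7.05e-07). In its order of 300, 200 and 100 mg/kg, LPS and naive, the outer steps were called and the inner steps, 200 against 100 mg/kg (0.48 ± 0.16; limma, adjusted p = 0.168) and 100 mg/kg against LPS, were not.

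Other probe sets of Irf2bp2 did not follow this course. Probe set 1433632_at read 2177.2 and 2018.4 in naive arrays, 1216.8, 955.6 and 1276.7 after LPS, 566.5, 658.2 and 1919.8 at 100 mg/kg, 1316.3, 1541.8 and 977.2 at 200 mg/kg and 2269.9, 1915.8 and 1853.1 at 300 mg/kg. Its LPS arrays were below the naive arrays, where those of 1433634_at were above them, and its arrays at 300 mg/kg were near the naive ones. The difference of LPS from naive was -0.87 ± 0.36 (limma, adjusted p = 0.082), that of 300 mg/kg from LPS 0.80 ± 0.32 (adjusted p = 0.0701) and that of 300 from 100 mg/kg 1.15 ± 0.32 (adjusted p = 0.0171). At 100 mg/kg 1433632_at was called lower than naive, by -1.21 ± 0.36 (limma, adjusted p = 0.0175), where 1433634_at was called higher. Its differences from naive at 200 and 300 mg/kg were -0.73 ± 0.36 and -0.06 ± 0.36 (limma, adjusted p = 0.145 and 0.923). Probe set 1433633_at differed from naive by -0.76 ± 0.30, -0.69 ± 0.30 and -0.03 ± 0.30 at the 3 doses (limma, adjusted p = 0.0715, 0.101 and 0.96). It gave -0.40 ± 0.30 for LPS against naive (limma, adjusted p = 0.37) and 0.37 ± 0.27 for 300 mg/kg against LPS (adjusted p = 0.346). The fourth, 1454665_at, read 4.4 to 138.7 and was called in no comparison. The direction after LPS and at 100 mg/kg, relative to naive, therefore differed between probe sets of Irf2bp2, while 3 of its 4 probe sets were higher at 300 mg/kg than after LPS, 1 of them past the threshold. With the mean of the probe sets standing for the gene, Irf2bp2 was called in none of the 11 comparisons: -0.08 for LPS against naive (limma, adjusted p = 0.891) and 0.35 for 300 mg/kg against LPS (adjusted p = 0.439).

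**Figure D3:**
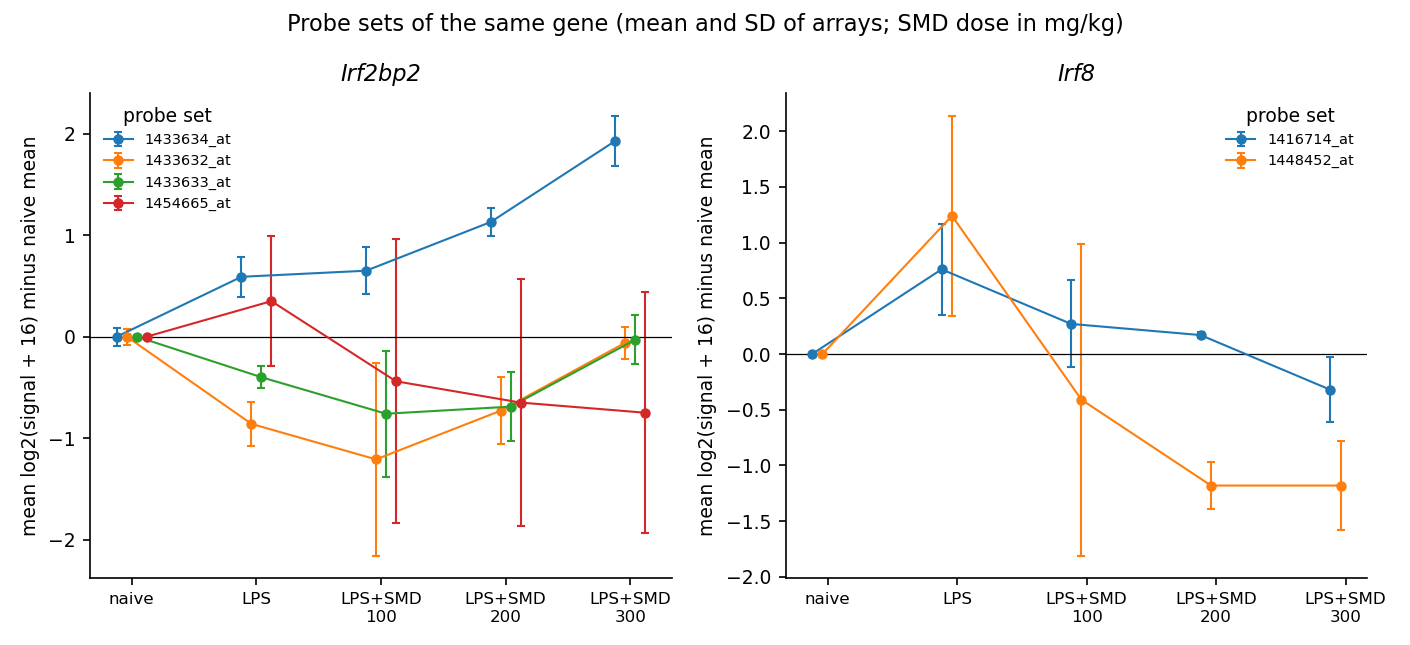
Mean log2(signal + 16) minus the naive mean for each probe set of Irf2bp2 (left) and Irf8 (right) by group; error bars are the SD of arrays (n = 2 for naive, 3 otherwise) and SMD doses are in mg/kg. The Irf2bp2 probe sets part after LPS, where 1433634_at is above and 1433632_at and 1433633_at are below the naive level; both Irf8 probe sets are above naive after LPS and below it at 300 mg/kg, and at 100 and 200 mg/kg they lie on opposite sides.

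Across the 12 arrays of challenged mice, with LPS alone as dose 0, all 6 genes had a linear dose trend that was called, 2 rising and 4 falling, where 27.4% of all probe sets were called. Per 100 mg/kg the slope was 0.45 ± 0.07 for Irf2bp2 (limma, adjusted p = 4.96e-05), 0.29 ± 0.06 for Irf2 (adjusted p = 0.00102), -0.34 ± 0.07 for Irf8 (adjusted p = 0.00128) and -0.34 ± 0.08 for Irf1 (adjusted p = 0.00269). The slopes of Irf4, -0.43 ± 0.14 (limma, adjusted p = 0.0261), and Irf5, -0.37 ± 0.13 (adjusted p = 0.0332), had larger errors. A straight line describes Irf4 (1421173_at) poorly, with differences from LPS of -1.50 at 100 mg/kg and -1.48 at 300 mg/kg. The first of these was not called (limma, adjusted p = 0.267). The dimmer 1421174_at gave -0.87, -1.95 and -1.32 at 100, 200 and 300 mg/kg, none called. The trends of Irf1, Irf2, Irf8 and Irf2bp2 were called in all 14 fits that left out 1 array, and those of Irf4 and Irf5 in 11 each, lost without LPS replicate 1, LPS replicate 3 or 300 mg/kg replicate 3. Between 200 and 100 mg/kg none of the 6 genes was called, where 1.13% of all probe sets were.

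The actin ratio of the arrays moved with these values. In the LPS group, replicate 2, with a ratio of 5.863, had the lowest Irf1, Irf8, Irf4 and Irf5 of the 3 arrays and the highest Irf2. At 100 mg/kg, replicate 3, with the lowest ratio of its group, had the highest Irf1, Irf8, Irf4 and Irf5 and the lowest Irf2. Irf2bp2 had the same order in these groups, lowest in LPS replicate 2 and highest in replicate 3 at 100 mg/kg, yet its level rose with dose. All arrays at 200 and 300 mg/kg had ratios above those of all LPS and naive arrays. A term for the ratio therefore cannot separate it from SMD when these doses are compared with LPS or naive. Whether a change there followed the ratio or the dose was not tested, whether its call was lost or kept. With the log2 ratio as a term in the model, the difference of 300 mg/kg from LPS was -0.18 for Irf1 (limma, adjusted p = 0.725), -0.40 for Irf8 (adjusted p = 0.306), -0.15 for Irf4 (adjusted p = 0.841), 0.26 for Irf5 (adjusted p = 0.712) and 0.45 for Irf2 (adjusted p = 0.257). Irf2bp2 alone kept its call, at 1.49 ± 0.23 (limma, adjusted p = 0.000341). At 200 mg/kg none of the 6 genes was called in that model, against 4 without the term, and over all probe sets 407 were, against 3532. After LPS alone the same 3 genes were called with the term, Irf1 at 0.86 (limma, adjusted p = 0.000989), Irf8 at 0.75 (adjusted p = 0.00156) and Irf2bp2 at 0.59 (adjusted p = 0.0109). Against naive arrays the fall of Irf4 was called with the term at 100 mg/kg, at -1.33 (limma, adjusted p = 0.000408), but not at 200 mg/kg (-0.58; adjusted p = 0.219) or 300 mg/kg (-0.48; adjusted p = 0.44). The falls of Irf5 from naive were lost as well, at -0.92 for 200 mg/kg (limma, adjusted p = 0.0585) and -0.18 for 300 mg/kg (adjusted p = 0.834). With the term Irf8 was called above naive at 100 mg/kg (0.53; limma, adjusted p = 0.0344) and 200 mg/kg (0.72; adjusted p = 0.0294), and Irf1 at 200 mg/kg (0.89; adjusted p = 0.0135). Between 300 and 100 mg/kg the calls of Irf1 (-0.50; limma, adjusted p = 0.106) and Irf2 (0.40; adjusted p = 0.184) were lost, and between 300 and 200 mg/kg Irf5 was called higher (0.74; adjusted p = 0.0469).

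**Figure D4:**
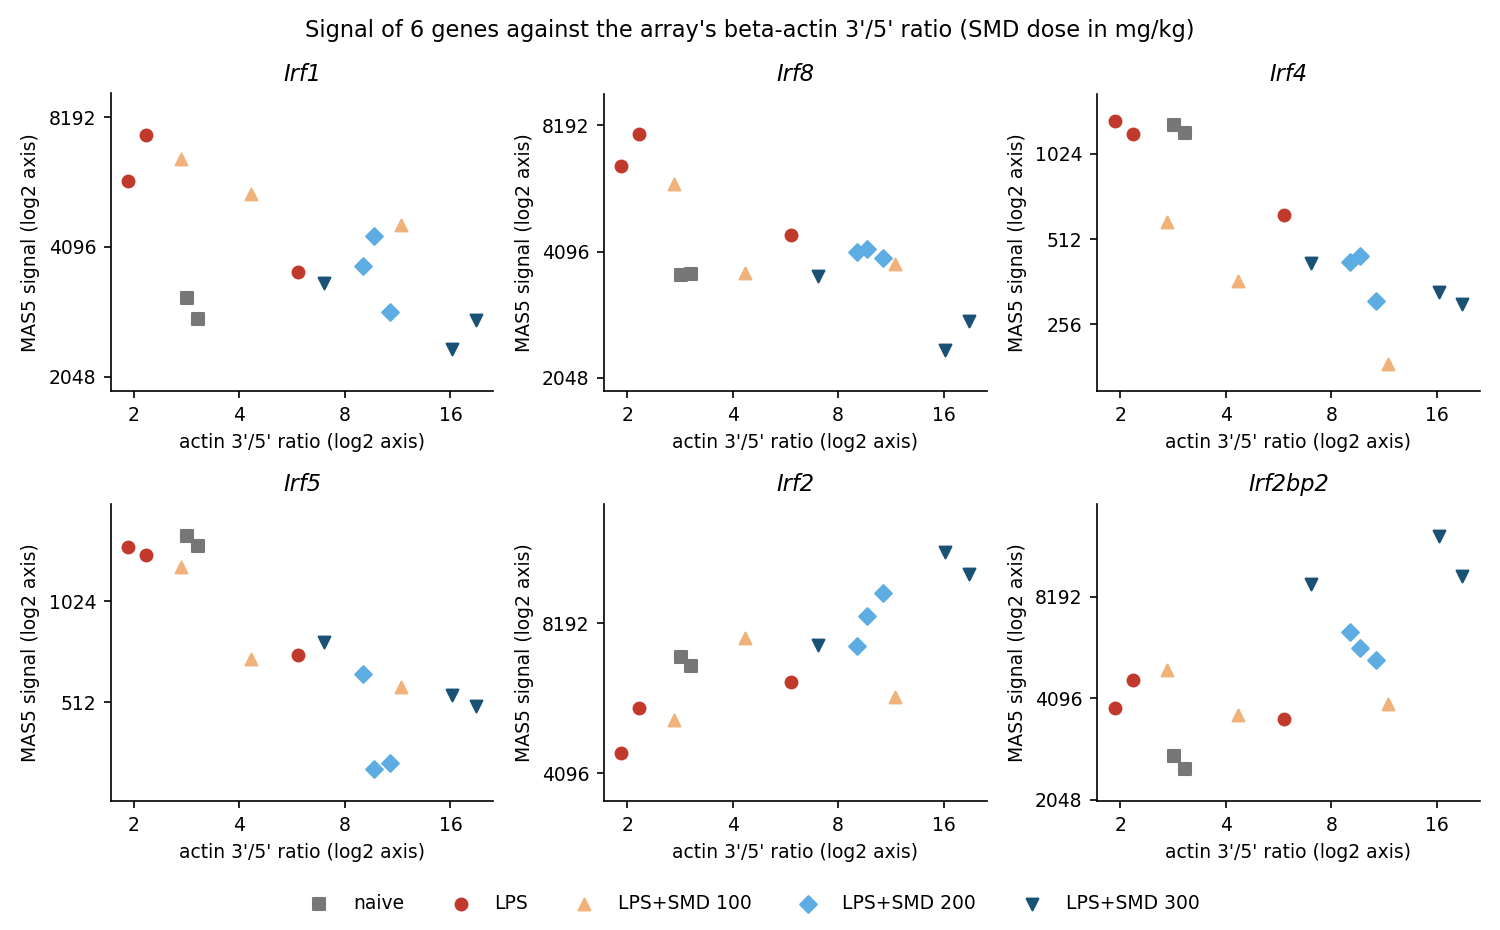
MAS5 signal of the 6 genes (log2 axis) against the beta-actin 3′/5′ signal ratio of the same array (log2 axis); symbols mark the groups and SMD doses are in mg/kg. The 3 challenged arrays of lowest ratio (1.925 to 2.718) had the highest Irf1, Irf8 and Irf5 signals of the 12, and the arrays at 200 and 300 mg/kg all had ratios above 5.863, the highest of the LPS arrays.

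**Figure D5:**
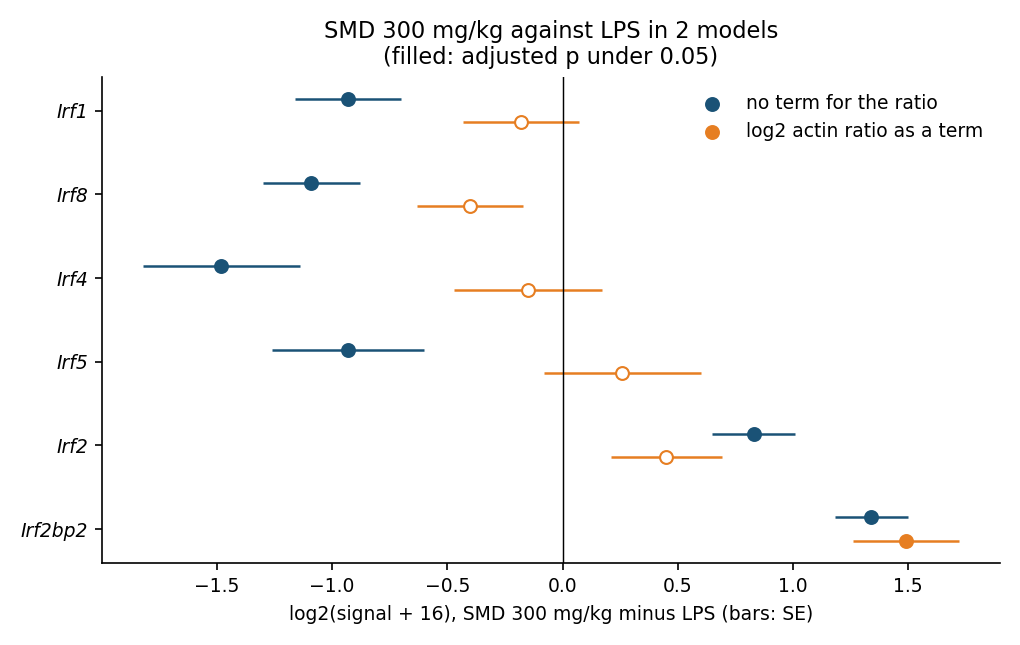
Difference of SMD at 300 mg/kg from LPS, as log2(signal + 16) with its standard error, in the model without and with the log2 actin ratio as a term; filled points had a limma adjusted p under 0.05. The 4 negative differences shrink to between -0.40 and 0.26, and Irf2bp2 stays at 1.34 and 1.49.

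Leaving out replicate 2 of both LPS and 100 mg/kg, a choice made after the data were seen, all 6 genes were called at 300 mg/kg. At 200 mg/kg Irf1 (-0.87; limma, adjusted p = 0.00787) and Irf8 (-0.81; adjusted p = 0.0128) were then called, and Irf2bp2 (0.46; adjusted p = 0.096) was not.

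Single arrays also moved the calls at 200 mg/kg. Irf1 and Irf8 were called there without LPS replicate 2 (limma, adjusted p = 0.00887 and 0.0125), and Irf8 also without 100 mg/kg replicate 3 (adjusted p = 0.0331). The falls of Irf4 and Irf5 were lost without LPS replicate 1 or 3, and that of Irf4 without 200 mg/kg replicate 3. The rise of Irf2 was lost without LPS replicate 1 or 3 or 200 mg/kg replicate 1 or 3. The rise of Irf2bp2 was lost without either naive array, LPS replicate 1 or 2, or any single 200 mg/kg array. The calls of Irf1, Irf2, Irf4, Irf8 and Irf2bp2 (1433634_at) at 300 mg/kg were held in all 14 such fits.

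Because IRF1 and IRF2 share sites, the log2 ratio of their signals was followed in each array relative to the naive mean, which sets no level of 1 gene against the other. It was 1.59, 0.42 and 1.64 in LPS arrays, a mean of 1.22 ± 0.69 (SD, n = 3). The mean was 1.05 ± 0.43 at 100 mg/kg, -0.00 ± 0.42 at 200 mg/kg and -0.55 ± 0.57 at 300 mg/kg. The balance thus lay toward Irf1 after LPS and at 100 mg/kg, at the naive value at 200 mg/kg and toward Irf2 in 2 of the 3 arrays at 300 mg/kg. The LPS array with 0.42 was replicate 2, with the highest actin ratio of its group. At 100 mg/kg the highest value, 1.54, was in replicate 3, with the lowest. With the actin term neither Irf1 (-0.18) nor Irf2 (0.45) was called at 300 mg/kg against LPS. The part of the actin ratio in this balance was not tested. The log2 ratio of Irf8 to Irf4, factors that share DNA-binding partners, was 1.09 ± 0.29 above the naive mean after LPS and 2.15 ± 0.59, 1.86 ± 0.25 and 1.52 ± 0.19 above it with rising SMD dose. In 8 of the 9 SMD arrays it was 1.55 to 2.84, above all LPS arrays, and in 300 mg/kg replicate 2 it was 1.31, against 1.32 in LPS replicate 2.

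The related genes outside the group gave a scale for these changes. Of Irf3, Irf7, Irf9, Irf2bp1 and Irf2bpl, 2 rose after LPS and 4 fell at 300 mg/kg against LPS. Over all tested probe sets 10.3% and 13.7% were called in these directions. Irf7, the amplifier of type I interferon, rose by 3.51 ± 0.53 (limma, adjusted p = 6.26e-05) and fell by 3.83 at 300 mg/kg (adjusted p = 1.11e-05). Irf9, the DNA-binding subunit of the interferon-stimulated complex, rose by 1.63 ± 0.29 and fell by 1.93 (limma, adjusted p = 0.000288 and 2.29e-05). Irf3, the latent factor that starts interferon beta, gave -0.16 ± 0.29 after LPS (limma, adjusted p = 0.747) and fell by 1.16 at 300 mg/kg (adjusted p = 0.00238). Irf2bpl, a relative of Irf2bp2, fell by 1.79 at 300 mg/kg (limma, adjusted p = 0.000186), in the opposite direction to Irf2bp2, and Irf2bp1 gave -0.66 ± 0.34 (adjusted p = 0.177). Irf2 and Irf2bp2 were the only 2 of these 11 genes called higher at 300 mg/kg, where 13.8% of all tested probe sets were. The Irf2bp2 call rests on 1433634_at alone, and the Irf2 call was lost with the actin ratio as a term.

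Most genes known as IRF1 targets were higher after LPS and lower at 300 mg/kg, as Irf1 was. After LPS 17 of the 21 tested were higher and 0 lower, with a median of 2.07 against -0.24 over all probe sets. Among them Cxcl10, a chemokine for T cells, rose by 9.82, Il15ra, the receptor that presents interleukin 15, by 2.61, and Ccl5 by 5.04 (limma, adjusted p = 2.61e-14, 8.92e-08 and 1.67e-08). With SMD at 300 mg/kg 18 of 21 were lower than after LPS and 0 higher, with a median of -1.88 against -0.03. Psmb8, an immunoproteasome subunit, fell by 1.90, and Nlrc5, the activator of MHC class I genes, by 2.50 (limma, adjusted p = 1.4e-06 and 1.56e-06). With the actin term 16 of 21 were called lower, with a median of -1.45, while Irf1 itself was not called. The list holds 2 genes, Ccl5 and Trim21, that other lists hold too.

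Of 14 tested genes for signals that act on IRF1, IRF5 and IRF8, most with MyD88 or interferon gamma, limma called 5 higher and 1 lower after LPS, with a median of 0.64. Myd88, the adaptor that activates IRF5, rose by 2.62 and Jak2, a kinase of the interferon gamma receptor, by 1.70 (limma, adjusted p = 8.13e-08 and 3.71e-06), and Stat3 rose by 1.76 (adjusted p = 0.000554). The 1 lower gene, Tlr4, the receptor for LPS, at -1.45, was not called without LPS replicate 3, naive replicate 1 or naive replicate 2, and 2 genes were called lower without LPS replicate 2. The names of genes beyond the leading ones of each list were added after their values were seen. At 300 mg/kg 3 were higher, the kinase Irak1 (0.98), the ligase Traf6 (0.91) and the receptor chain Ifngr1 (0.65), and 6 lower, with a median of -0.59, led by the falls of Trim21, a ligase that acts on IRF proteins (-2.31; adjusted p = 0.000151), and Jak1 (-1.10; adjusted p = 0.000156). With the actin term 2 were higher and 3 lower. Without it, the background of calls was 10.3% higher and 16.8% lower after LPS, and 13.8% and 13.7% at 300 mg/kg.

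Partners that bind DNA with IRF4 and IRF8 rose in part. Of 12 tested, 5 were higher and 2 lower after LPS (limma), with a median of 0.55: Jun rose by 2.15, Batf by 2.60 and Batf2 by 3.62 (adjusted p = 1.1e-06, 2.71e-06 and 1.16e-05). At 300 mg/kg 1 was higher and 6 lower, with a median of -0.70, where Batf2 fell by 3.56 and Batf by 2.21 (limma, adjusted p = 6.64e-06 and 7.23e-06). Spi1, which encodes PU.1, fell by 1.13 and Ets1 alone rose, by 1.40. The 2 lower after LPS were Spib (-1.97), a relative of PU.1, and Tcf3 (-2.63), a B cell factor. They became 1 without LPS replicate 2 or naive replicate 2 and 0 without naive replicate 1, the 1 higher at 300 mg/kg became 2 without LPS replicate 1, and the actin term gave 4 higher and 3 lower at 300 mg/kg. Of 14 genes known as IRF8 targets, 5 were higher and 3 lower after LPS (median 0.14), the lower ones being Ncf1, Klf4 and Cd1d1. At 300 mg/kg 1 was higher, Cd1d1 by 1.43, and 3 lower, Fcgr1, Pml and Il18 (median -0.16). The shares over all tested probe sets were 10.3% higher and 16.8% lower after LPS, and 13.8% and 13.7% at 300 mg/kg. Fcgr1, a receptor for antibody, rose by 3.42 after LPS and fell by 4.20 at 300 mg/kg (limma, adjusted p = 1.24e-06 and 2.62e-07). Pml rose by 1.57 and fell by 2.09 (limma, adjusted p = 0.000171 and 4.43e-06), and Bcl6 rose by 1.59 after LPS (adjusted p = 0.000311). Without naive replicate 2 the LPS counts were 3 higher and 0 lower, without LPS replicate 2 there were 3 higher, and without 200 mg/kg replicate 3 there were 2 higher at 300 mg/kg.

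The genes linked to IRF4 and alternative activation did not follow Irf4. After LPS 5 of 12 were higher and 1 lower (median 0.50). Prdm1, a repressor of B cell and macrophage genes, rose by 2.63, Il4ra, the interleukin 4 receptor, by 2.57 and Ccl22 by 2.43 (limma, adjusted p = 6.7e-07, 8.81e-06 and 0.000277). The 1 lower gene, Arg1, which encodes arginase, at -1.02, was not called without naive replicate 1 or 2, and without naive replicate 2 the higher genes were 3. At 300 mg/kg 4 were higher (Arg1, Kdm6b, Prdm1 and Cd36) and 2 lower (Il4ra and Ccl22; median 0.23), Arg1 at 1.71 (limma, adjusted p = 0.000282) and Il4ra at -1.91 (adjusted p = 7.64e-05), and the actin term left 2 higher and 0 lower. Of 10 inflammatory genes that depend on IRF5, 8 were higher and 0 lower after LPS (median 4.43), led by the chemokines Ccl3 (8.97), Ccl4 (6.38) and Cxcl2 (4.68; limma, adjusted p = 2.68e-15, 2.61e-14 and 8.5e-14). At 300 mg/kg 1 was higher, Il6 by 2.80 (limma, adjusted p = 4.03e-06), and 1 lower, Ccl5 by 2.16 (adjusted p = 0.000105). The median was 0.00. Without naive replicate 1 or 2 there were 2 higher, and Ccl5 is in the IRF1 list as well. For both lists the background of calls was 10.3% higher and 16.8% lower after LPS, and 13.8% and 13.7% at 300 mg/kg. Irf5 itself was called lower at 300 mg/kg (limma, adjusted p = 0.0447). That call was held in 6 of the 14 fits without 1 array and was not kept with the actin term (0.26).

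Markers of the cells that carry these factors moved too. Beside their counts stand the shares of all tested probe sets, 10.3% higher and 16.8% lower after LPS. At 300 mg/kg against LPS the shares were 13.8% and 13.7%. The summed signal of B cell markers, where Irf4 and Irf8 are also expressed, was 82059 to 91046 after LPS, 57271 to 81847 at 100 mg/kg, 70531 to 81288 at 200 mg/kg and 91636 to 104235 at 300 mg/kg. The lowest array was at 100 mg/kg, where the range overlapped with that at 200 mg/kg. The arrays at 300 mg/kg lay above the LPS arrays by little, from 91636 against an LPS maximum of 91046. Of 12 B cell markers 5 were lower after LPS (Ms4a1, Cd79b, Ebf1, Cr2 and Fcmr), and 5 were higher (Ms4a1, Ebf1, Cr2, Fcmr and Fcrla) and 0 lower at 300 mg/kg. The LPS count was 3 without LPS replicate 3 or either naive array, and 1 was called lower at 300 mg/kg when replicate 2 of LPS, the third array of 100 mg/kg or the first of 300 mg/kg was left out. Monocyte and dendritic cell markers (8 genes) summed to 7678 to 7701 in naive arrays, 5521 to 7067 after LPS, 3143 to 5233 at 100 mg/kg, 2068 to 3520 at 200 mg/kg and 2261 to 3537 at 300 mg/kg. Of these, Xcr1 and Siglech were below the filter level, Cd209a fell at 300 mg/kg by 1.91 and Ccr2 rose by 1.56 (limma, adjusted p = 3.36e-05 and 0.000243). Neutrophil markers (10 genes) summed to 3204 to 4056 in naive arrays and 21384 to 23822 after LPS. They summed to 16366 to 30995 at 100 mg/kg, 29634 to 30139 at 200 mg/kg and 36466 to 48181 at 300 mg/kg. Of 9 tested, 5 were called higher and 0 lower after LPS. At 300 mg/kg against LPS 3 were higher and 1 lower (limma), with a median of 0.12 against -0.03 over all probe sets. T and NK cell markers (8 genes) summed to 6494 to 6527 in naive arrays, 3642 to 5412 after LPS, 2950 to 5472 at 100 mg/kg, 3771 to 6110 at 200 mg/kg and 6088 to 7891 at 300 mg/kg. Of the 8, 4 were called higher and 0 lower at 300 mg/kg against LPS (Cd3e, Cd3d, Cd3g and Thy1), with a median of 1.16 against -0.03 over all probe sets. Plasma cells also express Irf4. Their markers (6 genes) summed to 16039 to 16680 in naive arrays, 18649 to 23832 after LPS and 19151 to 24263 at 300 mg/kg, where 3 of 5 tested were higher than after LPS (Jchain, Mzb1 and Prdm1) and 1 lower (Xbp1). Mast cell markers (8 genes) lay between 43825 and 63933 in all arrays. The part of the cell mixture in the changes of the 6 genes was not tested.

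The genes whose signals ran most like each member over the 14 arrays were found among 7839 genes, as a description without a test. The points share group, scaling and actin ratio. Irf1 ran with Wars (r = 0.94, and 0.934 over the 12 challenged arrays), Psmc5 (0.94) and Elp5 (0.932). Wars encodes a tryptophan tRNA ligase that interferon gamma induces, and it rose by 1.07 after LPS and fell by 1.31 at 300 mg/kg (limma, adjusted p = 0.0127 and 0.00127). Irf8 ran with Ciapin1 (r = 0.974), Sf3b3 (0.962) and Grpel1 (0.958), all of which rose after LPS, by 0.94, 0.95 and 0.81, and fell at 300 mg/kg, by 1.48, 1.47 and 1.12. Irf4 ran with Nfe2l1 (r = 0.964), Stoml2 (0.951) and Sae1 (0.94), and Irf5 with Mrpl14 (0.97), Serf2 (0.962) and Glmp (0.961). Irf2 ran with Txndc17 (r = 0.953), Gng10 (0.933) and Rpl14 (0.926). Irf2bp2 ran with Zxdb (r = 0.96), Atp5d (0.953) and F3 (0.947). F3 encodes tissue factor, which starts blood clotting, and it rose by 1.43 after LPS and by 2.10 more at 300 mg/kg (limma, adjusted p = 0.00356 and 4.79e-05).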

How the data were processed

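Peritoneal cells of 14 mice or pools in 5 groups were profiled, grouped by the sample titles. The deposited values are linear intensities, 1 for each probe set. The submitters' processing notes name MAS5, with no version given in the sources used here. Every array had been scaled to a common mean: with the top and bottom 2% of values trimmed, it was 500 in each of the 14, so a change is relative to the rest of the array. RNA was extracted with Trizol and about 7.5 µg was labelled with biotin, per the labels' protocols.

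Of 45101 probe sets 64 controls were left out, and 34945 of the other 45037 had a single symbol in the platform annotation, updated through Entrez identifiers in RefSeq tables of GRCm38.p6. Values were taken as log2(signal + 16), which understates changes of dim genes. Probe sets whose mean was in the lowest 40% (under 5.64, a signal of 33.9) were left out, leaving 27022 for 12817 genes. In R 4.3.3, limma 3.58.1 fitted all 14 arrays together, giving each group its own mean (lmFit, eBayes with trend, two-sided), and version 1.17.8 of data.table handled the files. The dose trend used the 12 challenged arrays. The number of arrays limits the precision. The fit was tested on simulated data.

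For each gene the probe set with the highest mean stood in counts. The text names all members, the 3 genes most correlated with each member, 5 related genes of the family, and from each list up to 3 genes of smallest p after LPS and up to 2 at 300 mg/kg. The members and lists were chosen with earlier results of these data known. Alternatives were other pseudocounts, filters and scalings, array weights, a replicate block, the actin ratio as a term, pairwise fits, the mean of probe sets and leaving out each array. Leaving out LPS replicate 2 and 100 mg/kg replicate 2 together was chosen after seeing the data. Promoters came from RefSeq (GRCm38.p6), where all 6 genes matched. Detection calls and protein sequences were not used here.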

Additional observations from a re-analysis of the deposited data

How the results depend on the processing

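Over 3321 alternative values of the probe sets of the members, 3112 kept their side of the threshold with no reversal of a called change. Of these, 95 changed sign where neither fit was called. A further 94 passed the threshold newly, 108 missed it newly, and 7 reversed sign with a call in at least 1 of the fits. The numbers of the 6 genes called changed as follows. With the actin ratio as a term, the genes called were 0 at 200 mg/kg against LPS (4 without it), 1 at 300 mg/kg against LPS (6), 2 at 300 against 200 mg/kg (1), 1 at 300 mg/kg against naive (3) and 1 for the dose trend (6). It reversed Irf5 at 300 mg/kg against LPS (0.26), the trend of Irf4 (0.05) and the trend of Irf5 (0.09). With the mean of probe sets per gene, 1 gene was called after LPS (3) and 0 at 300 against 200 mg/kg (1), and Irf2bp2 reversed for LPS against naive (-0.08), 200 mg/kg against LPS (-0.15), 100 mg/kg against naive (-0.44) and 200 mg/kg against naive (-0.23). Array weights gave 1 gene, Irf4, at 100 mg/kg against LPS (0) and 1, Irf2bp2, at 200 against 100 mg/kg (0). Leaving out 1 array at a time gave 0 to 3 genes for LPS against naive, 0 to 1, 0 to 5 and 5 to 6 for 100, 200 and 300 mg/kg against LPS, 0 to 0 for 200 against 100 mg/kg, 0 to 1 for 300 against 200 mg/kg, 2 to 4 for 300 against 100 mg/kg, 1 to 4, 3 to 3 and 2 to 4 for the 3 doses against naive, and 4 to 6 for the trend. Scaling arrays to 1 median changed no direction of a called gene. With limma it lost Irf5 at 300 mg/kg against LPS (adjusted p = 0.0866), at 300 mg/kg against naive (adjusted p = 0.0547) and in the trend (adjusted p = 0.0572), and it called Irf2 at 300 mg/kg against naive (0.73, adjusted p = 0.012). The labels do not say that replicate numbers pair the samples. Of 26 correlations of same-numbered arrays, taken as deviations from group means, 4 were over 0.1. They ranged from -0.127 to 0.185, and those of differently numbered arrays from -0.265 to 0.223. With groups of 2 or 3 arrays these values cannot show whether samples were paired. With the replicate block, limma no longer called Irf5 at 300 mg/kg against LPS (-0.93, adjusted p = 0.0518) and called Irf8 at 300 against 100 mg/kg (adjusted p = 0.0424). The causes of these differences were not tested. Probe sets near the filter level, 1421174_at, 1449678_at and 1454665_at, limit what can be said of second probe sets.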
